A study of Mus musculus with 2 samples.

Results

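Glucocorticoids reach the brain through a pair of nuclear receptors, and 6 genes of that system were followed across the mouse brain: the receptors Nr3c1 (glucocorticoid receptor, GR) and Nr3c2 (mineralocorticoid receptor, MR), the enzyme gene Hsd11b1, and the hormone-induced genes Fkbp5, Sgk1 and Tsc22d3. They were taken by symbol as 6 of the 32285 genes in each count matrix, and each symbol matched 1 gene. The data were 2 coronal sections through the dorsal hippocampus, processed by Visium spatial transcriptomics, in which each barcoded spot captures polyadenylated RNA from the small patch of tissue above it. The sections came from 1 mouse that received the shocks of an active place avoidance task (trained) and from 1 mouse walking in the same arena with the shock always off (untrained). In this task a mouse on a rotating arena learns to keep away from a fixed shock zone. Both mice were adult males aged 3 to 4 months of the ArcCreERT2::eYFPflx line on a C57BL/6 background, a line that carries a tamoxifen-inducible Cre recombinase under the Arc promoter and a Cre-dependent eYFP reporter, and both were housed singly once training began. The retention test took place 24 h after the last session and the brains were taken 60 min after it, frozen, and cut at 10 µm.

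With 1 section of 1 mouse per group there was no replicate, so no difference between the sections could be tested, and a difference between mice, sections, planes of cutting or slides cannot be told apart from one between training conditions. All levels are CPM, that is unique molecular identifiers (UMIs) of a gene per 1000000 UMIs of all genes, pooled over the spots of a region. All intervals are 95% intervals that cover counting error only. They are exact, except for those of a difference between the ratios inside and outside the hippocampus, which are approximate. The section ratio is the log2 of the CPM in the section labelled trained over the CPM in the section labelled untrained. Depth differed: 29515831 UMIs over 4152 spots were counted under the label trained and 59029131 over 3738 spots under the label untrained. The hippocampus held 581 and 560 of these spots, with a median of 5303 and 16628.5 UMIs per spot. The array positions of 3448 spots were covered in both sections, which is a property of the fixed barcode layout. The tissue covered differed: 217 and 29 spots carried striatal markers, and 49 and 108 choroid plexus markers, in the sections labelled trained and untrained. The plane of cutting and the trimming of the sections to the capture area cannot be told apart in these counts. Mitochondrially encoded genes took 11.7% and 16.3% of hippocampal UMIs. Spots with at least 1 UMI of the activity-induced genes Arc, Egr1 and Jun numbered 208, 256 and 179 in the hippocampus of the section labelled trained and 348, 388 and 314 in that of the section labelled untrained. Such counts follow depth: scaled to depth, Arc was at 82.4 and 74.6 CPM, Egr1 at 164 and 139 CPM and Jun at 91.3 and 74.5 CPM, and after thinning each spot to 1000 UMIs 8.09% and 7.57%, 11.1% and 11.2%, and 6.96% and 6.20% of spots held a UMI. The study's text counts positive spots by the same criterion, without thinning, and has them in the opposite order between the trained and the untrained mouse. With the labels exchanged, the counts for Egr1 and Jun lie close to those in that text, but the counts for Arc do not. The labels of the sections may be exchanged relative to that text, and every direction given here refers to the deposited label only.

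As background, corticosterone binds the MR with high affinity, so that this receptor is largely occupied at resting hormone levels, while the GR, with lower affinity, becomes occupied at the daily peak and under stress. Hormone-bound receptors leave a chaperone complex of Hsp90 and immunophilins, enter the nucleus and bind glucocorticoid response elements, inverted repeats of the hexamer AGAACA. The hippocampus is known for its high MR content, and forebrain white matter for the induction of Sgk1 in oligodendrocytes by corticosterone.

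Promoter sequences were searched for such an element. RefSeq promoters (GRCm38.p6, 250 bases before to 50 after a start) were given for 5 of the 6 genes, 12 promoters in all, and were read on both strands for the palindrome (AGAACA, any 3 bases, then TGTTCT), for its looser form (GNACA, any 3 bases, then TGTNC), which every palindrome also matches, and for the hexamer AGAACA alone, which lies inside the palindrome. The palindrome was found in 3 of 32851 promoters of that length (0.00913%), those of Sgk1, Acnat2 and Gm35041, the looser form in 156 (0.475%), and the hexamer in 6233 (18.97%). Of the 12 promoters, 1 held the palindrome and the looser form and 4 the hexamer, 3 of Sgk1 and 1 of Tsc22d3, while none of those given for Nr3c2, Fkbp5 and Hsd11b1 held any of them. The 250 bases upstream of 1 Sgk1 start, chr10:21993640-21993889 on the plus strand, are shown because they hold the palindrome (capitals; a further hexamer on the opposite strand is in lower case), and those upstream of a Tsc22d3 start, chrX:140600523-140600772 on the minus strand, because they hold the hexamer alone (capitals, read on the opposite strand). The Sgk1 window lies upstream of a start used by shorter transcripts and inside an intron of longer ones. A match is a description of the letters and not a measured binding site.
Sgk1: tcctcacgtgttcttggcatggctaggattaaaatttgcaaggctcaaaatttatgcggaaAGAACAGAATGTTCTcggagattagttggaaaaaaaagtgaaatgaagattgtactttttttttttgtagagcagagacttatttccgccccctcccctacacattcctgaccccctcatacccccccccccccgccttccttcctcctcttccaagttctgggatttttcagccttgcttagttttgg
Tsc22d3: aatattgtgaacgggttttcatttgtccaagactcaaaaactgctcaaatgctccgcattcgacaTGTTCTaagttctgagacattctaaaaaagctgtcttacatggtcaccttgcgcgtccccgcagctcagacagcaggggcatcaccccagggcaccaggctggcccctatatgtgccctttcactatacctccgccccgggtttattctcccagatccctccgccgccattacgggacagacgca

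The spots were grouped by clustering on genes other than the 6 members, the pathway list and the marker genes, and groups were named from marker sets. Hippocampal groups were CA1 (cluster 21, the spots richest in pyramidal layer markers, and cluster 13 around it), dentate gyrus (DG; cluster 18, richest in granule layer markers, and cluster 7 around it, whose leading genes also include Ddn, Camk2a and Hopx) and cluster 12, which had its highest score for CA3 markers and leading genes such as Neurod6, Klk8 and Lpl but no CA3 marker among its leading genes, so it is called by its number. Each spot holds several cells, so fewer cells of a type and less RNA per cell cannot be told apart in any value that follows.

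**Figure D1:**
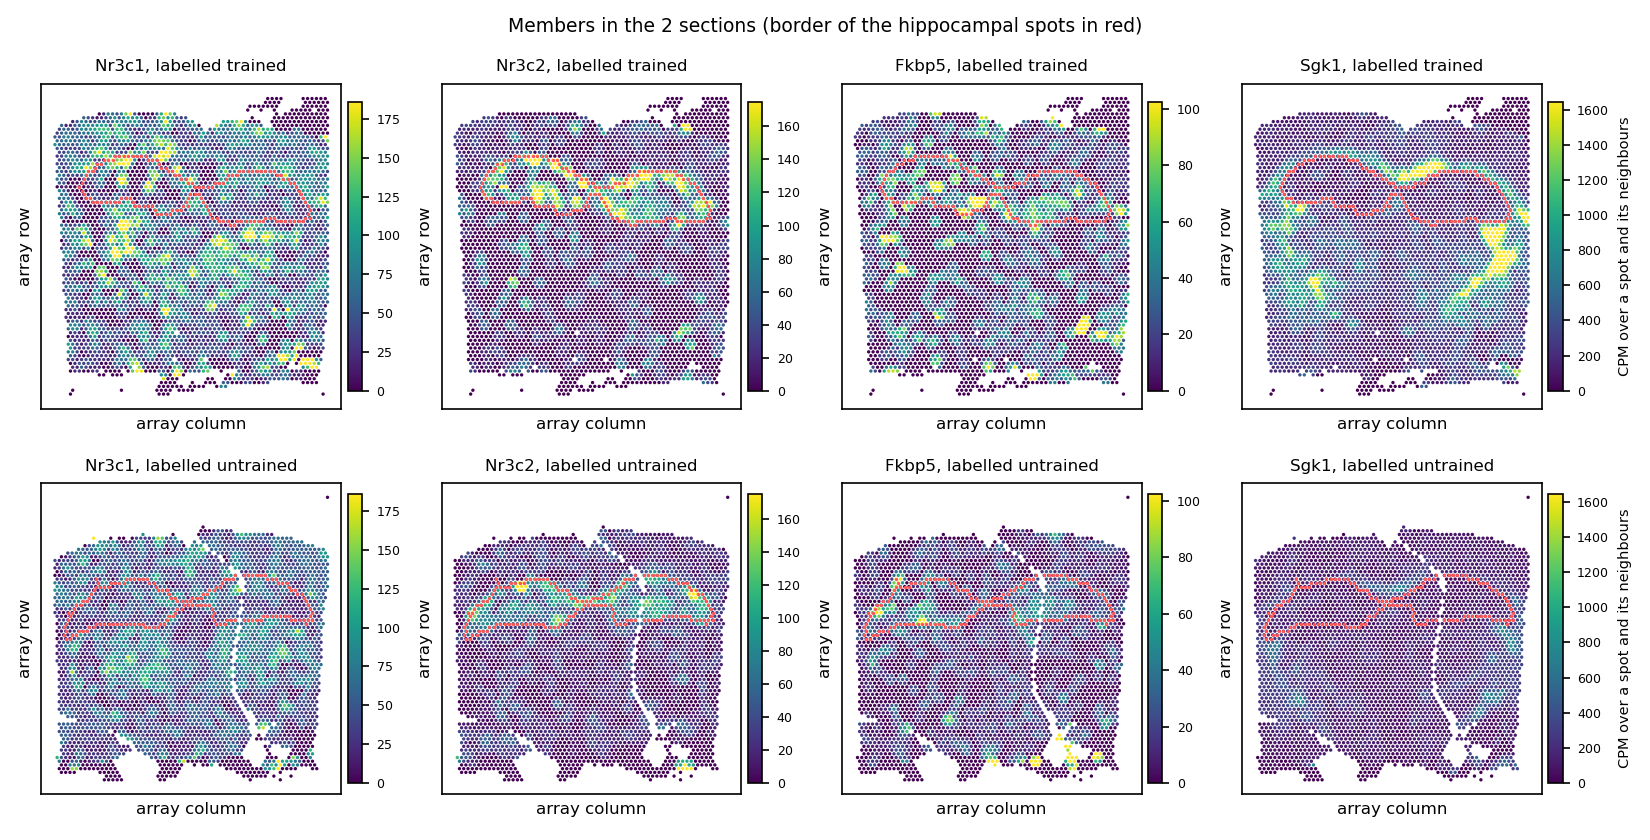
Maps of Nr3c1, Nr3c2, Fkbp5 and Sgk1 on both sections (top row labelled trained, bottom row labelled untrained); each dot is 1 spot at its array column and row, the colour gives CPM pooled over that spot and its neighbours on 1 scale per gene, and red dots mark the border of the hippocampal spots. Nr3c2 follows the hippocampal cell layers and Sgk1 the white matter in both sections, with 1471 CPM of Sgk1 pooled over the white matter under the label trained and 431 CPM under the label untrained.

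The receptor genes had different maps. Nr3c2 was concentrated in the hippocampus, at 103 CPM (94.1 to 113) against 17.8 CPM (16.1 to 19.5) in the rest of the section labelled trained, and at 81.3 CPM (76.1 to 86.7) against 17.04 CPM (15.9 to 18.3) in that labelled untrained. The hippocampus was therefore 5.82-fold and 4.77-fold above the rest, a log2 ratio of 2.54 (2.35 to 2.73) and 2.25 (2.12 to 2.39), and 99.7% and 99.6% of all genes compared had a lower ratio. The 5 regions with the highest Nr3c2 level were the 5 hippocampal clusters in both sections, and in the section labelled trained the interval of the lowest of these, cluster 7, lay above that of the next region, meninges and large vessels (26.2 CPM). Within the hippocampus Nr3c2 was highest in CA1 cluster 21, at 164 CPM (136 to 195) and 123 CPM (107 to 142), followed by DG cluster 18 at 117 and 98.4 CPM. Lowest was DG cluster 7 at 64.2 and 51.7 CPM. The intervals of clusters 21 and 18 overlapped in both sections, and that of cluster 7 lay below both.

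Nr3c1 was spread over the whole section and was slightly lower in the hippocampus taken as a whole. Its level was 46.5 CPM (40.3 to 53.3) inside and 60.3 CPM (57.3 to 63.4) outside in the section labelled trained, and 39.4 CPM (35.8 to 43.2) and 47.4 CPM (45.5 to 49.4) in that labelled untrained. Thalamic cluster 1 headed the order with 98.9 CPM (85.4 to 114) and 73.9 CPM (66.9 to 81.4). Intervals of neighbouring regions in the order overlapped throughout, so the order gives only its ends. Inside the hippocampus Nr3c1 separated the fields: CA1 stood 0.94 (0.52 to 1.35) and 0.76 (0.48 to 1.04) log2 units above the other hippocampal spots, where 5.21% and 4.23% of genes were at least 1.5-fold higher. At 69.6 and 55.8 CPM, the CA1 value was also above the pooled value outside the hippocampus. Cluster 12 stood 1.14 and 1.01 log2 units below the others, with 25.1 CPM (17.4 to 35.1) and 23.1 CPM (18.3 to 28.7), where 6.02% and 6.57% of genes were at least 1.5-fold lower. The level of Nr3c1 in cluster 12 was the lowest of all 21 regions in the section labelled trained and next to the lowest, above the habenula alone, in the other.

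The balance of the receptor transcripts followed from both maps. Of the UMIs of both receptor genes, Nr3c2 gave 69.0% (65.3 to 72.5) and 67.3% (64.8 to 69.8) in the hippocampus and 22.8% (20.9 to 24.7) and 26.4% (24.9 to 28.0) outside it, in the sections labelled trained and untrained. The share was 79.4% (72.4 to 85.3) and 77.6% (72.9 to 81.8) in cluster 12, and in thalamic cluster 1 it was 16.9% (12.3 to 22.3) and 18.6% (15.3 to 22.3). It is a share of counts and carries the capture efficiency of each transcript, so its differences between regions can be read but not its absolute value. The 25 hippocampal spots of each section richest in CA2 markers (Amigo2, Rgs14, Necab2, Map3k15, Cacng5 and Ntf3), of which 19 and 21 lay in cluster 12, had the highest share, 92.9% (82.7 to 98.0) and 90.8% (84.4 to 95.1). Only 4 and 12 Nr3c1 UMIs were found in these spots, a log2 ratio of -1.79 (-3.85 to -0.58) and -1.46 against the other spots of the hippocampal clusters. Nr3c2 was 0.72 (0.26 to 1.13) and 0.87 (0.57 to 1.14) above them. Of the CA2 markers Ntf3 was the least raised in these spots, at 1.46 and 1.21. It was also a leading gene of DG cluster 18, so the selection is not particular to CA2. The last spot inside this selection had a marker sum of 785 and 630 CPM and the first outside 778 and 602 CPM, so the border of the selection is gradual.

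Hsd11b1, whose enzyme regenerates active corticosterone from its inert keto form inside cells, was another gene above the rest of the brain in the hippocampus. Its level was 47.8 CPM (41.6 to 54.7) inside and 22.3 CPM (20.5 to 24.3) outside in the section labelled trained, and 43.8 CPM (40.0 to 47.8) and 26.7 CPM (25.2 to 28.2) in the other, log2 ratios of 1.10 (0.86 to 1.33) and 0.72 (0.56 to 0.87). Single regions outside were as high: cluster 16 held 52.0 and 59.2 CPM, above CA1 cluster 21 and DG cluster 18 in both sections, and cluster 8 held 45.8 CPM in the section labelled untrained. Unlike Nr3c2, it was low where cell body markers were highest: CA1 cluster 21 held 22.1 and 23.5 CPM, DG cluster 18 held 19.7 and 31.7 CPM, while DG cluster 7 held 65.4 and 64.1 CPM. Relative to the other hippocampal spots these were log2 ratios of -1.23 and -0.98 in cluster 21 and 0.59 and 0.73 in cluster 7. In DG and in CA1 the gene was thus lower in the cluster richest in cell layer markers than in the cluster around it, in both sections. Cluster 12 held 62.0 and 43.5 CPM. At a coarser clustering (Leiden resolution 1.0), spots led by Hopx, Ddn and Camk2a formed a group of their own named from neuropil markers, with Hsd11b1 among its leading genes, and the DG ratio of Hsd11b1 in the section labelled trained went from -0.25 to -0.81. The ratio of the DG group therefore depends on how the spots around the granule layer are divided from other hippocampal neuropil.

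Of the induced genes, Fkbp5, which encodes an immunophilin that holds the GR in its inactive complex and is itself induced by the receptor, was also higher in the hippocampus than in the rest of the section. It reached 38.9 CPM (33.3 to 45.2) inside against 18.9 CPM (17.2 to 20.6) outside, and 30.3 CPM (27.2 to 33.7) against 11.2 CPM (10.3 to 12.2), log2 ratios of 1.05 (0.78 to 1.30) and 1.43 (1.23 to 1.63). The DG stood 0.86 log2 units above the other hippocampal spots in the section labelled untrained and 1.07 (0.62 to 1.53) in the other, where the 171 UMIs are below the minimum of 200 set for a comparison. Cluster 18 had 72.6 and 54.3 CPM, against 23.2 and 22.3 CPM in CA1. DG cluster 7 had 43.6 and 29.6 CPM, and its ratios over the other hippocampal spots, 0.22 (-0.37 to 0.74) and -0.03 (-0.45 to 0.35), had intervals that held 0, so that only cluster 18 of the DG had intervals above 0. The CA2 marker spots, with 20 and 34 UMIs, held 62.9 and 40.5 CPM of Fkbp5. Their ratios over the other spots of the hippocampal clusters were 0.79 (0.007 to 1.44) and 0.46 (-0.11 to 0.96). Fkbp5 was thus low in CA1 as a whole, the hippocampal field with the most Nr3c1. It was high in the granule layer, where Nr3c1 was at 38.2 and 35.0 CPM. Within CA1 the low level lay in cluster 13, at 14.1 and 16.7 CPM. Cluster 21, which had the most Nr3c1 (71.5 and 59.8 CPM), held 29.9 and 28.0 CPM of Fkbp5. Its Fkbp5 ratios over the other hippocampal spots, -0.42 (-1.15 to 0.19) and -0.12 (-0.62 to 0.33), had intervals that held 0. Outside the hippocampus the striatum had 34.6 and 21.3 CPM, the latter over only 29 spots, cluster 16 had 33.9 and 15.8 CPM and cluster 10 had 16.5 and 39.7 CPM, the last with a wide interval (14.6 to 86.5). In 1 section each, these clusters thus stood above the CA1 clusters.

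**Figure D2:**
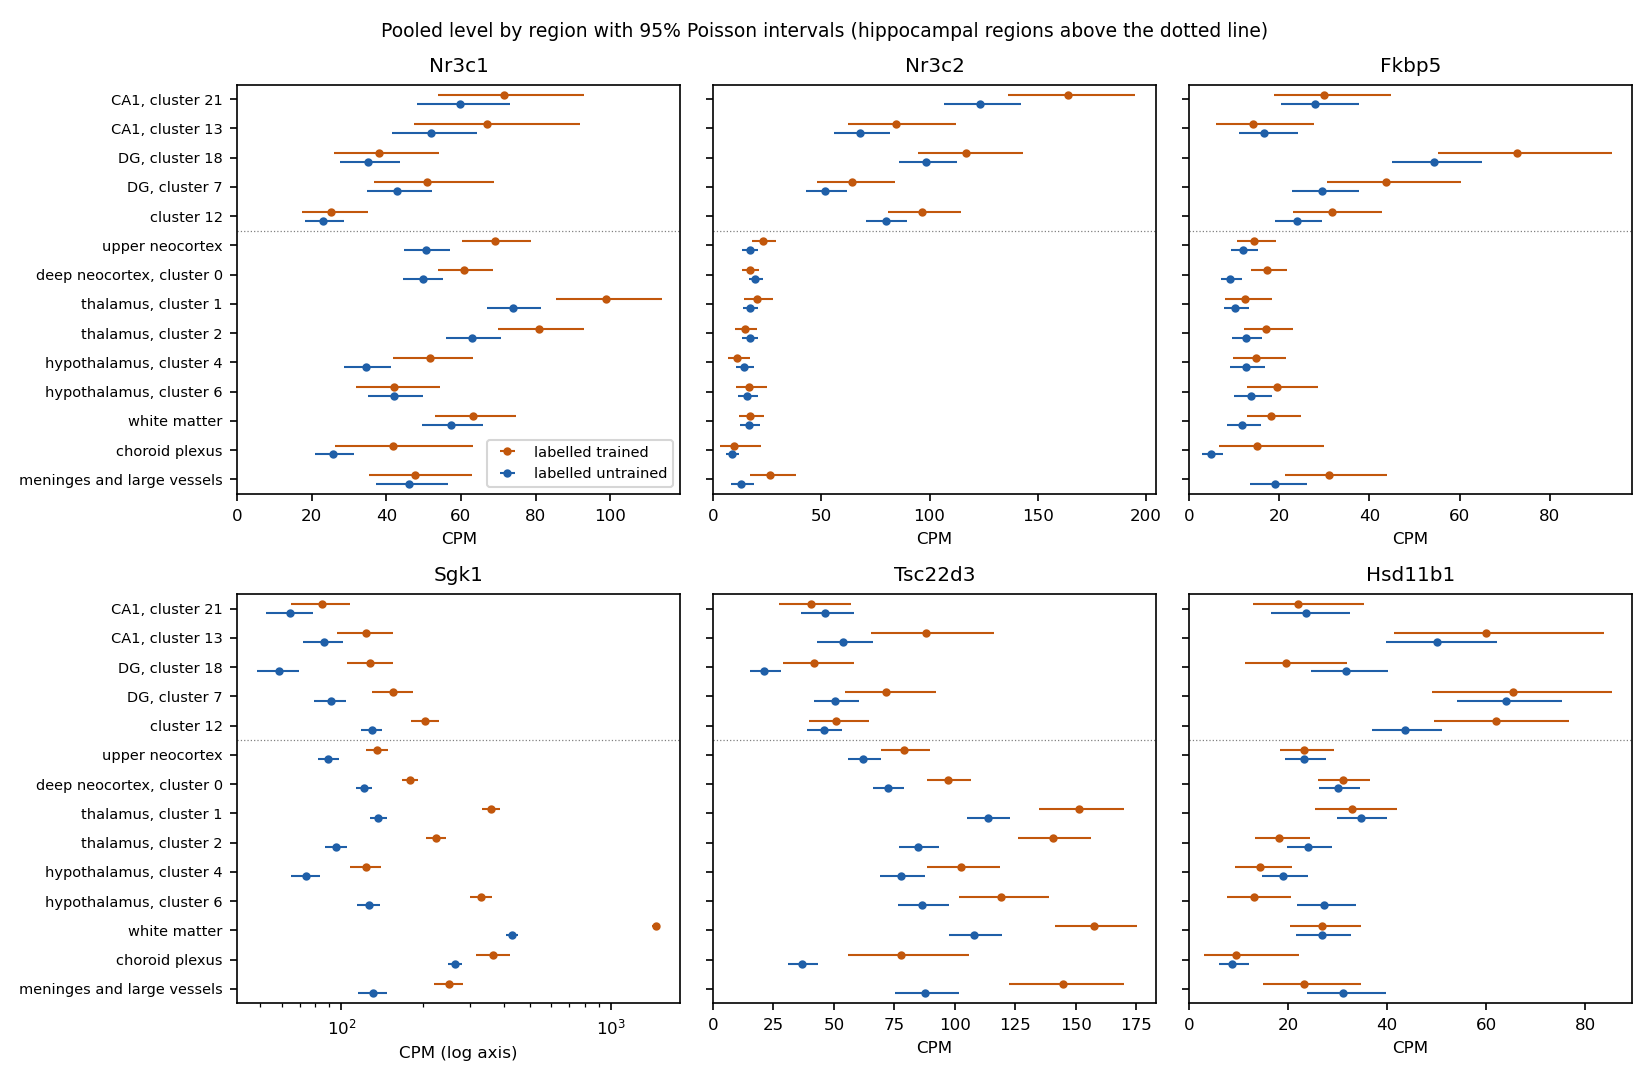
Level of each gene by region in CPM, with 95% Poisson intervals as bars, in the sections labelled trained (orange) and untrained (blue); the axis for Sgk1 is logarithmic and the dotted line parts the hippocampal groups from the rest. Nr3c2 is highest in the hippocampal clusters and Sgk1 in white matter in both sections, while Nr3c1 peaks in thalamic cluster 1.

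Sgk1 and Tsc22d3 had the opposite arrangement, lower inside the hippocampus than outside. Sgk1, a serine/threonine kinase that acts on ion channels and transporters, was at 148 CPM (137 to 160) inside and 350 CPM (343 to 358) outside in the section labelled trained and at 93.1 CPM (87.6 to 98.9) and 150 CPM (146 to 153) in the other. Tsc22d3, which encodes the anti-inflammatory leucine zipper protein GILZ, was at 56.9 CPM (50.1 to 64.4) and 116 CPM (112 to 121), and at 43.6 CPM (39.8 to 47.6) and 79.7 CPM (77.2 to 82.3). The log2 ratios were -1.24 and -0.68 for Sgk1 and -1.03 and -0.87 for Tsc22d3. In all, 3 of the 6 genes (Nr3c2, Fkbp5 and Hsd11b1) were at least 1.5-fold higher in the hippocampus in both sections, where 9.65% and 8.5% of all genes were, and 2 (Sgk1 and Tsc22d3) at least 1.5-fold lower, where 15.6% and 16.1% were.

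White matter set Sgk1 apart from the other members. It reached 1471 CPM (1420 to 1523) in the white matter of the section labelled trained against 245 CPM in the other spots outside the hippocampus, and 431 CPM (410 to 454) against 128 CPM in the section labelled untrained. These are log2 ratios of 2.58 (2.52 to 2.65) and 1.76 (1.67 to 1.84), or 5.99-fold and 3.38-fold, and 99.1% and 98.3% of all genes had a lower ratio. Sgk1 was the only member at least 1.5-fold higher in white matter, in both sections, against 13.2% and 9.61% of all genes. Tsc22d3 was 0.49 (0.32 to 0.65) and 0.48 (0.32 to 0.63) higher there. In the 74 and 77 white-matter spots whose neighbours were all white matter, the ratio of Sgk1 rose to 3.07 and 2.04, and that of Tsc22d3 went to -0.17 and 0.26, so the white-matter excess of Tsc22d3 turned sign with this choice in the section labelled trained. For Nr3c2, Fkbp5 and Hsd11b1 the intervals of the white-matter ratio held 0 in both sections, and for Nr3c1 it did so in the section labelled trained (0.08, -0.19 to 0.33) but not in the other (0.30, 0.08 to 0.51), where it went to -0.056 in spots thinned to 1000 UMIs and so turned sign. These values too depended on the spots: in the spots with white-matter neighbours alone, Nr3c2 went to -1.22 and Hsd11b1 to -0.67 in the section labelled trained, both past 1.5-fold lower, and to 0.12 and -0.24 in the other.

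Over the 21 regions measured in both sections (42 points, 11397 genes, each section centred on its own mean), the genes with the pattern nearest to Sgk1 were Trf (r = 0.93), Mog (r = 0.92) and Cryab (r = 0.91); Mog, a myelin protein gene, was among the markers that named the white matter. Nr3c2 was nearest to Arpc2 (r = 0.93), Epha7 and Wipf3 (r = 0.89 for both), and Tsc22d3 to Tril, Ndrg2 and Gpr37l1 (r = 0.82 for all 3). Fkbp5 was nearest to Sec14l2 (r = 0.77), Hsd11b1 to Mau2 (r = 0.69) and Nr3c1 to Npas2 (r = 0.62). The points of a section share 1 library, and neighbouring regions share tissue, so these are descriptions only. A member's own pattern in the section labelled trained correlated with that in the section labelled untrained at 0.94 for Nr3c2, 0.91 for Sgk1, 0.84 for Tsc22d3, 0.81 for Nr3c1 and 0.67 for both Fkbp5 and Hsd11b1. Spatial structure as scored by the authors (Moran's I, where 0 means no structure) was 0.323 and 0.264 for Sgk1, the highest of the 6, then 0.113 and 0.168 for Nr3c2, and lowest for Fkbp5 at 0.0179 and 0.0449.

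**Figure D3:**
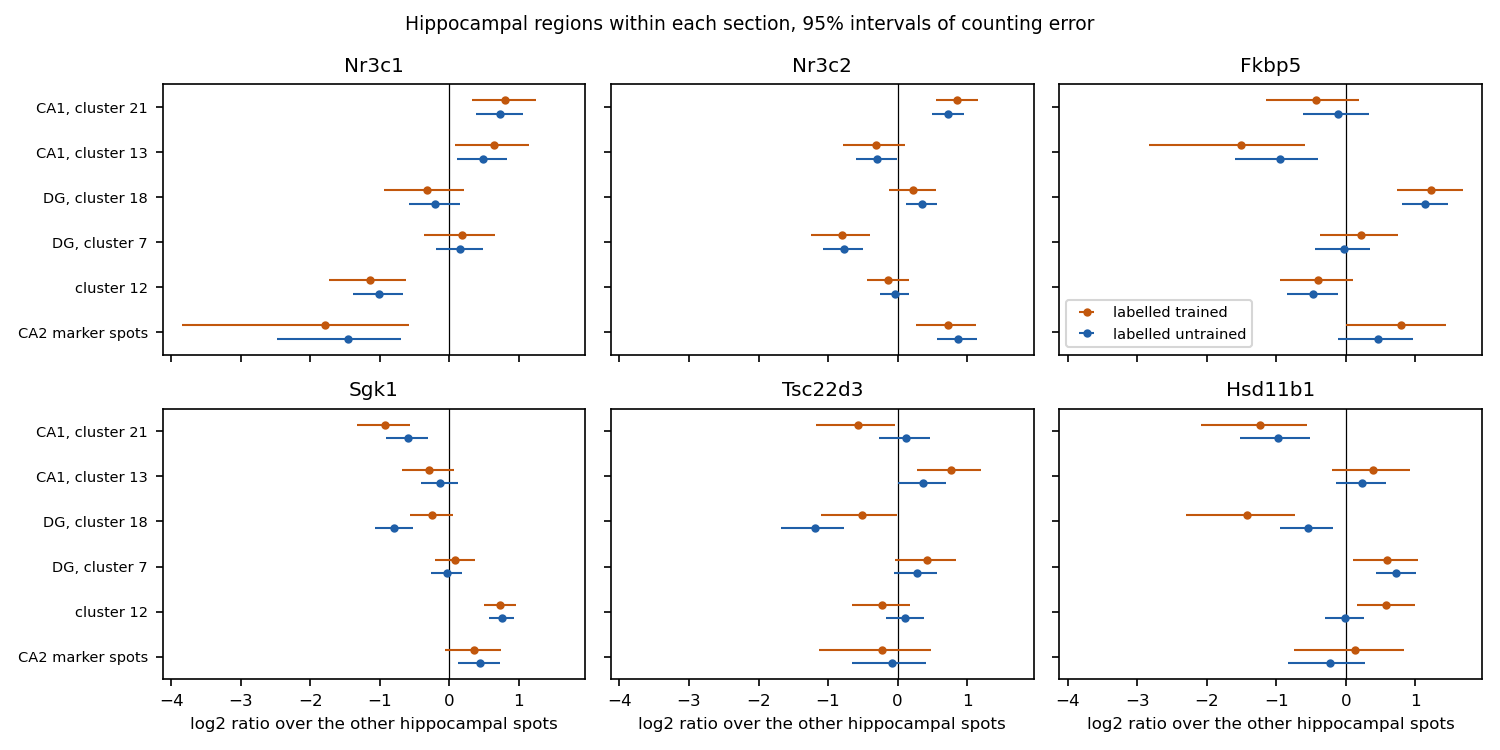
Log2 ratio of each hippocampal cluster over the other hippocampal spots, for each gene and section, with 95% counting intervals as bars and 0 meaning an equal level. The CA2 marker spots are set against the other spots of the hippocampal clusters only. Nr3c1 is high in CA1 and low in cluster 12 (-1.14 and -1.01), Fkbp5 is high in DG cluster 18 (1.22 and 1.14) but not in DG cluster 7 (0.22 and -0.03), and Hsd11b1 is low in the dense layers of clusters 21 and 18.

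Within the hippocampus Sgk1 was highest in cluster 12, at 204 and 130 CPM, or 0.73 and 0.76 log2 units above the other hippocampal spots, against 7.52% and 5.47% of genes at least 1.5-fold higher there. It was low in CA1, at 101 and 75.3 CPM, a log2 ratio of -0.74 (-1.02 to -0.46) and -0.41 (-0.63 to -0.20). With every spot weighted equally, the cluster 12 ratio became 0.45 and 0.47, below 1.5-fold in both sections. In the DG the sections differed: cluster 18 held 128 CPM of Sgk1 under the label trained and 58.4 CPM under the label untrained. Tsc22d3 was also low in cluster 18, at 41.9 and 21.2 CPM, and highest of the hippocampal groups in CA1 cluster 13, at 88.1 and 53.8 CPM, a log2 ratio of 0.76 and 0.37.

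The comparison of the sections asked whether these genes differed between the shocked and the unshocked mouse, inside and outside the hippocampus. All genes had a median section ratio of 0.07 inside and 0.08 outside. In the hippocampus 1 of the 6 genes, Sgk1, was at least 1.5-fold higher under the label trained, where 8.48% of the 5799 genes compared were, and none was 1.5-fold lower, where 4.16% were. Sgk1 had a ratio of 0.67 (0.53 to 0.81), which ranked 316 of 5799 from the highest (if the labels are exchanged, every section ratio turns its sign and such a rank counts from the lowest). Tsc22d3 followed with 0.39 (0.16 to 0.61), Fkbp5 with 0.36 (0.09 to 0.63) and Nr3c2 with 0.35 (0.18 to 0.51). These 4 genes had intervals above 0, as did 36.6% of all genes, and none lay below 0, as for 22.6%. The intervals of Nr3c1 (0.24, -0.01 to 0.48) and Hsd11b1 (0.13, -0.11 to 0.36) held 0.

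Outside the hippocampus, 2 of the 6 genes were at least 1.5-fold higher under the label trained, where 8.02% of the 11098 genes compared were: Sgk1 at 1.23 (1.18 to 1.27), which ranked 53, and Fkbp5 at 0.75 (0.57 to 0.93). None was 1.5-fold lower, where 4.88% of genes were. Tsc22d3 at 0.54 (0.47 to 0.61) and Nr3c1 at 0.35 (0.25 to 0.44) were smaller and also had intervals above 0, as did 43.3% of all genes. Nr3c2 was at 0.06 (-0.11 to 0.23). Hsd11b1 was the only member with an interval below 0, at -0.26 (-0.40 to -0.11), as had 26.7% of all genes. With every spot weighted equally the ratio of Fkbp5 was 0.55 and with every region weighted equally 0.52, both below 1.5-fold. The ratios of Sgk1 inside and outside differed by -0.56 (-0.71 to -0.41), inside minus outside, and 1.33% of genes differed as far. Those of Fkbp5 differed by -0.38 (-0.71 to -0.06), and 3.97% of genes differed as far. The ratios of Nr3c2 (0.29, 0.05 to 0.52) and Hsd11b1 (0.38, 0.10 to 0.66) were higher inside, and 9.37% and 3.99% of genes were as far apart. These differences depended on the spots used. With the outline widened by 2 spots Sgk1 was at 1.32 inside and 1.17 outside, so the order turned, and in spots of 5000 to 15000 UMIs Hsd11b1 was at -0.47 inside and -0.51 outside, so that little of the difference was left. For Nr3c1 and Tsc22d3 the interval of the difference held 0.

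**Figure D4:**
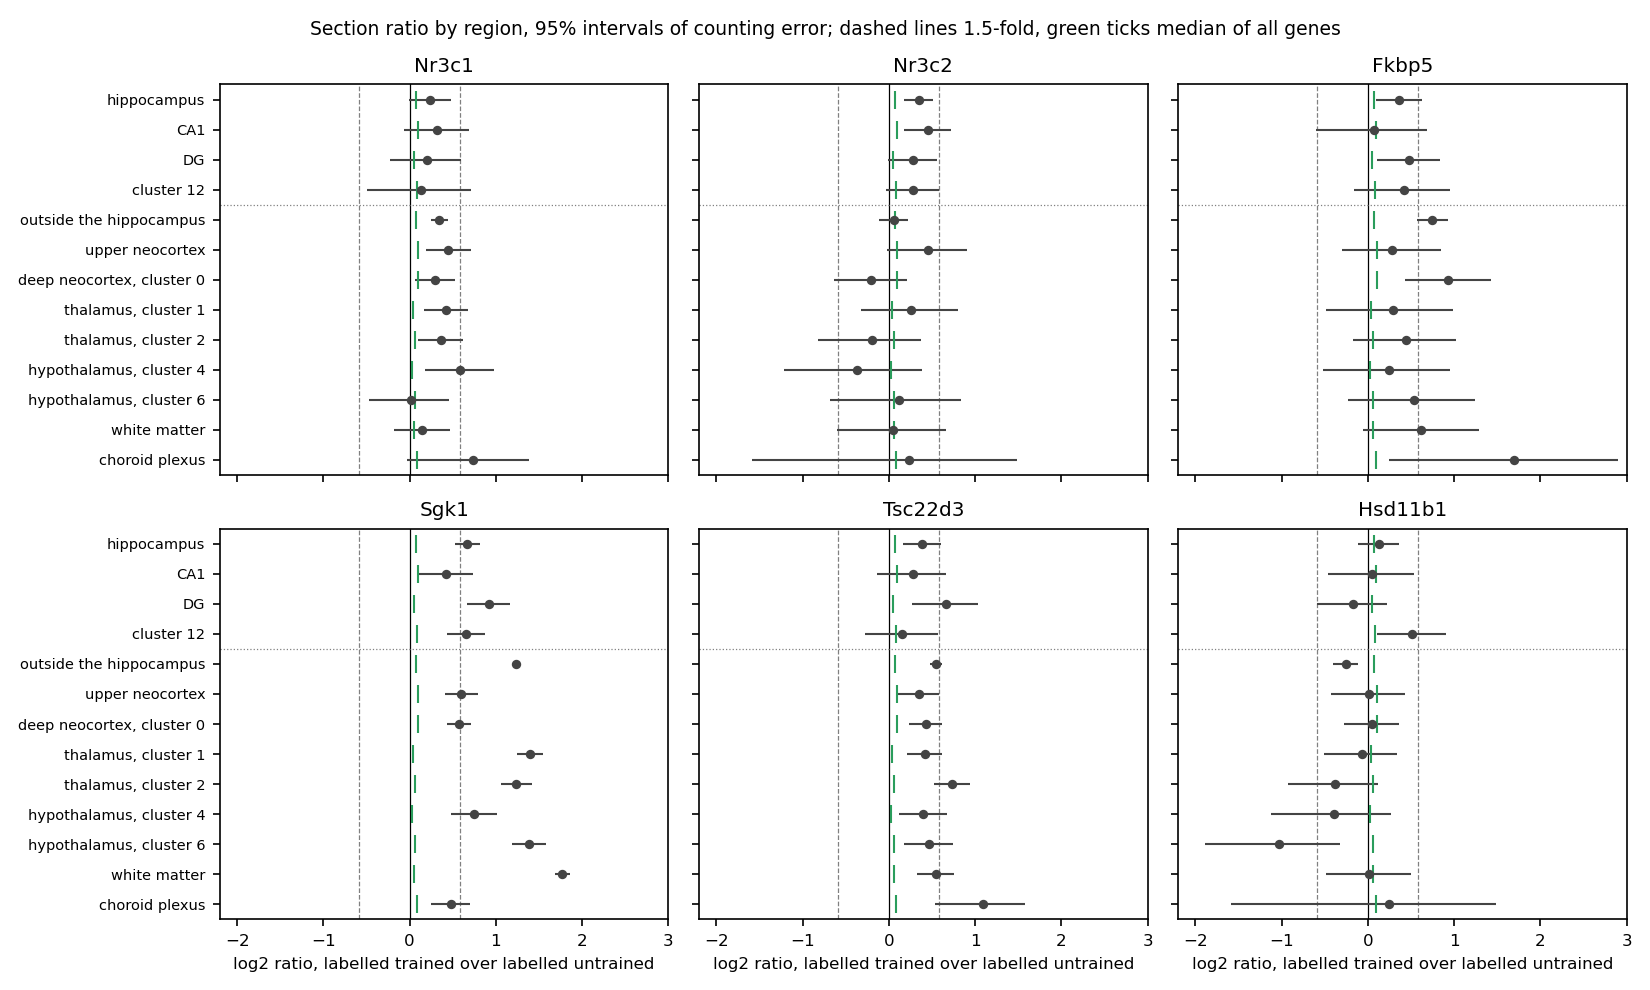
Section log2 ratio of the 6 genes by region, with 95% counting intervals as bars, dashed lines at 1.5-fold and green ticks at the median of all genes; 0 means equal levels in both sections. Sgk1 rises from 0.67 in the hippocampus to 1.23 outside and 1.77 in white matter, and Hsd11b1 is the only gene below 0 over all spots outside the hippocampus, at -0.26.

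Sgk1 was higher under the label trained in all 21 regions with at least 100 UMIs in both sections together, from 0.40 in CA1 cluster 21 to 1.77 in white matter, and its interval lay above 0 in 20 of them. In white matter its ratio of 1.77 (1.68 to 1.86), or 3.41-fold, ranked 1 of the 2156 genes compared, and in thalamic cluster 1 it ranked 6 of 3073. The summed level of 10 oligodendrocyte markers in white matter was 42828 and 36747 CPM, a ratio of 0.22, with 6 of 10 markers above 0. In white matter astrocyte markers were at 0.48 (3 of 5 above 0), haemoglobin genes at 0.62 (4 of 4), microglial markers at 0.25 (3 of 5), neuronal markers at 0.16 (3 of 5), endothelial markers at -0.01 (2 of 5), choroid plexus markers at -1.43 (0 of 6) and meningeal markers at -0.65 (2 of 10); their part in the Sgk1 ratio was not tested. Spots outside the hippocampus and choroid plexus were also compared within 5 bins of the summed level of these markers. Levels within the outer bins were close but not equal, at 1292 and 1559 CPM in the lowest and 37064 and 32512 CPM in the highest. The section ratio of Sgk1 was then 0.72 (0.54 to 0.90) in spots below 2000 CPM of the markers, 1.12, 1.18 and 1.24 in the next 3 bins, and 1.67 (1.60 to 1.75) in spots above 16000 CPM. The ratio was above 0 in each of these 5 bins, and the part of oligodendrocyte content in it was not tested. With choroid plexus spots included, of which 13 and 46 fell in the lowest bin, that bin had a ratio of 0.03 (-0.11 to 0.17). Choroid plexus spots held 367 and 263 CPM of Sgk1.

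The Sgk1 difference also depended on the side and on the outline. In the section labelled trained the left side was lower than the right: 119 against 159 CPM in the hippocampus, 287 against 395 CPM outside it and 1162 against 1628 CPM in white matter. Outside the hippocampus this is a log2 difference of -0.46 (-0.53 to -0.40), and 1.57% of genes differed as far between the sides of that section. In the section labelled untrained the sides held 147 and 152 CPM outside the hippocampus, a difference of -0.04 (-0.11 to 0.02). The hippocampal section ratio was accordingly 0.25 (-0.03 to 0.53) on the left alone, below 1.5-fold, and 0.83 (0.66 to 0.999) on the right alone. Outside, it was 0.96 on the left and 1.38 on the right. Widening the hippocampal outline by 2 spots, to 868 and 879 spots, raised the hippocampal ratio to 1.32, above the 1.17 then found outside. The part of plane, side and section handling in these differences was not tested.

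The other ratios were also set against markers of other cells and against depth. In the hippocampus the summed astrocyte markers were at 642 and 419 CPM (ratio 0.62, 4 of 5 markers above 0), neuronal markers at 3846 and 3126 CPM (0.30, 4 of 5), oligodendrocyte markers at 1958 and 2590 CPM (-0.40, 2 of 10) and endothelial markers at 86.8 and 119 CPM (-0.45, 1 of 5). Haemoglobin genes were at 1670 and 1033 CPM (0.69, 4 of 4), microglial markers at 153 and 158 CPM (-0.05, 2 of 5), choroid plexus markers at 969 and 4317 CPM (-2.16, 1 of 6) and meningeal markers at 45.6 and 95.7 CPM (-1.07, 1 of 10). Outside the hippocampus the section ratio of the summed astrocyte markers was 0.44 (2 of 5 above 0), with neuronal markers at 0.46 (5 of 5), oligodendrocyte at 0.14 (5 of 10), endothelial at -0.14 (2 of 5), microglial at 0.09 (2 of 5), choroid plexus at -1.81 (0 of 6) and meningeal markers at -1.15 (1 of 10), haemoglobin genes at 0.59 (3 of 4), and mitochondrially encoded genes took 12.4% and 16.1% of UMIs. The part of these cell types and of the mitochondrial share in the ratios of the 6 genes was not tested. When only spots of 5000 to 15000 UMIs were kept, the hippocampal ratio was 0.90 for Nr3c2, 0.71 for Fkbp5, 0.52 for Sgk1, 0.079 for Tsc22d3 and -0.47 for Hsd11b1. Nr3c2 and Fkbp5 were then past 1.5-fold and Sgk1 was not, so which gene passes 1.5-fold in the hippocampus depends on which spots are compared. Outside the hippocampus Sgk1 was 0.86 in such spots.

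A wider list of 59 genes of glucocorticoid and stress signalling was compared in the same way. Of its 29 genes with at least 400 UMIs there, 3 were at least 1.5-fold higher under the label trained and none lower (10.3% against 8.48% of all genes), and the median ratio was 0.06 against 0.07 for all genes. With a minimum of 100 UMIs, 5 of 38 were higher (9.79% of all genes). Intervals lay above 0 for 11 of the 29 and below 0 for 6, shares near those of all genes (36.6% and 22.6%). The 3 were Bag1, a cochaperone of Hsp70 (204 and 118 CPM; 0.79, 0.66 to 0.91), Ncoa2, a coactivator of steroid receptors (38.5 and 22.6 CPM; 0.77, 0.48 to 1.05), and Tsc22d2, a relative of Tsc22d3 (38.3 and 25.4 CPM; 0.60, 0.31 to 0.87). Klf9, a transcription factor induced by corticosterone in neurons, had 171 and 116 CPM and a ratio of 0.56 (0.43 to 0.69), and 0.96 (0.74 to 1.18) in white matter. Cebpb, a transcription factor of the acute phase, was at 0.55, Errfi1, an inhibitor of EGF receptor signalling, at 0.50 and Nrip1, a corepressor of nuclear receptors, at 0.44. The clock gene Per1 was at 0.10 (-0.14 to 0.33), and the MAP kinase phosphatase gene Dusp1, with 84 and 213 UMIs, was too low to be compared.

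Of the 8 chaperone genes, all were compared in the hippocampus; 1 had an interval above 0 and 3 below (36.6% and 22.6% of all genes). Hsp90ab1, a main chaperone of the unliganded receptor, was at 830 and 1049 CPM, a ratio of -0.34 (-0.39 to -0.29), and Fkbp4, the immunophilin that favours nuclear import of the GR, at 0.05. Of the 22 induced genes, 11 were compared, of which 6 had intervals above 0 and 1 below, where 36.6% and 22.6% of all genes had. Genes too low for a ratio included H6pd, which supplies the cofactor of the Hsd11b1 enzyme (8 and 33 UMIs in the hippocampus), Zbtb16 (10 and 18 UMIs), Crh, the hypothalamic stress peptide (7 and 25 UMIs), and its receptor Crhr1 (29 and 85 UMIs). Hsd11b2, which inactivates corticosterone, had 0 UMIs in the hippocampus of both sections. The upper limit that a count of 0 allows was taken as 3 UMIs. This is lower than the upper limit that the exact intervals used for the other levels give for such a count. The gene was not detectable at this depth.

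Outside the hippocampus 43 genes of the list were compared, 7 were at least 1.5-fold higher (16.3% against 8.02% of all genes) and 1 lower (4.88% of all genes were), with a median of 0.12 against 0.08. Intervals lay above 0 for 21 and below 0 for 12, beside 43.3% and 26.7% of all genes. They included Avp, the vasopressin gene of hypothalamic nuclei, at 28.0 and 5.99 CPM (2.22, 2.02 to 2.43), in sections whose level of Oxt, expressed in the same nuclei, was 663 and 63.1 CPM. Bag1 (0.66), Ncoa2 (0.78), Klf9 (0.68) and Arl4d (0.77) were above 1.5-fold as well. The gene that was lower was Crhbp, the CRH binding protein gene, at -0.60.

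Of the list genes with at least 200 UMIs, 11 of 42 were at least 1.5-fold higher in white matter than in the other spots outside the hippocampus in the section labelled trained (13.2% of all genes) and 8 of 44 in the other (9.61%), and 8 were lower in each (29.4% and 24.3%). Named are those with the largest ratios, a choice made on these values. Within the sections labelled trained and untrained, white matter exceeded the other spots outside the hippocampus by 1.87 and 1.57 log2 units for Arl4d, a small GTPase gene, 1.76 and 1.497 for Tsc22d4, 1.67 and 1.12 for Ddit4, an inhibitor of mTOR signalling, 1.38 and 1.10 for Nfkbia, the inhibitor of NF-kappaB, and 1.20 and 1.02 for Cebpd. Adcyap1 (-2.82 and -1.95), Avp (-2.50 and -1.76) and Crhr1 (-1.08 and -0.90) were lower there. Between the sections, white matter had 109 and 55.9 CPM of Arl4d (0.97, 0.69 to 1.25), 133 and 83.5 CPM of Ddit4 (0.67, 0.43 to 0.92) and 511 and 438 CPM of Tsc22d4 (0.22, 0.11 to 0.33), all smaller than the 1.77 of Sgk1. Of the 15 list genes compared in white matter, 4 (Arl4d, Klf9, Ddit4 and Bag1) were at least 1.5-fold higher, against 7.98% of all genes, and none was 1.5-fold lower, against 3.39%. The median of the 15 was -0.01 against 0.055 for all genes, and 6 intervals lay above 0 and 4 below (35% and 22.8% of all genes). No promoter of the pathway list held the palindrome, among 53 promoters of 41 genes, and 1, of Mt1, held the looser form.

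**Figure D5:**
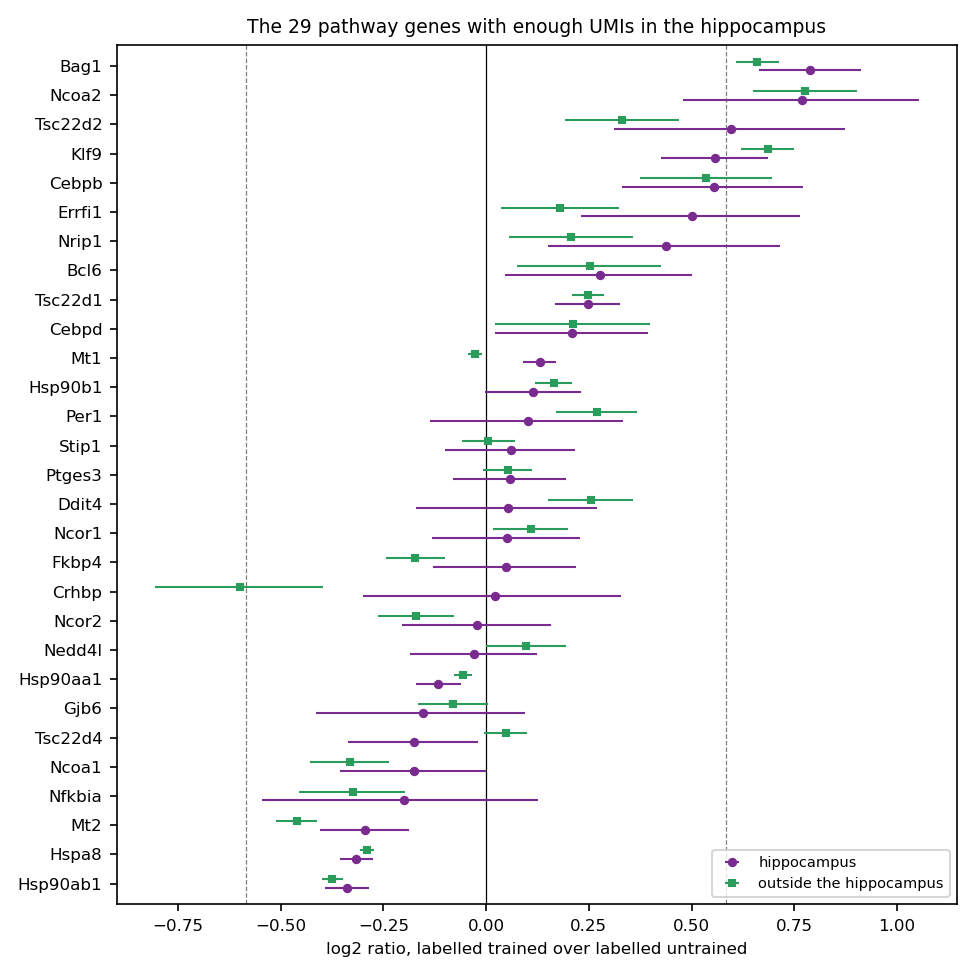
Section log2 ratio of the 29 genes of the pathway list with at least 400 UMIs in the hippocampus, inside (purple circles) and outside it (green squares), with 95% counting intervals as bars and dashed lines at 1.5-fold. Bag1, Ncoa2 and Tsc22d2 lie past 1.5-fold in the hippocampus, and Hsp90ab1, at -0.34, is the lowest there.

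By the GENCODE vM21 annotation on mm10, Sgk1 lies at chr10:21882184-21999903 on the plus strand with 14 exons, Nr3c1 at chr18:39410545-39519421 on the minus strand with 9 exons, Nr3c2 at chr8:76899442-77245012 on the plus strand with 9, Fkbp5 at chr17:28399094-28517527 on the minus strand with 14, Tsc22d3 at chrX:140539528-140600659 on the minus strand with 3 and Hsd11b1 at chr1:193221634-193264075 on the minus strand with 6. Nr3c2, Fkbp5 and Hsd11b1 overlap other annotated genes, among them Lamb3 on the strand opposite to Hsd11b1 and AC154912.5 on the strand of Fkbp5. Reads from the overlap with a gene on the same strand cannot be assigned with certainty, and their number is not known here.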

How the data were processed

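Per the labels and the study's methods, the authors processed 10x Visium libraries of the 2 sections with Space Ranger 2.0.0 against the mm10 reference transcriptome of 10x Genomics and deposited filtered UMI count matrices, with no normalization. They also deposited spatial enrichment tables, of which the Moran's I score was used; the p-values and normalized medians in these tables, and the image scale factors, were not used. Each group was 1 section of 1 mouse, so no test was made.

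Counts were pooled over the spots of a region and scaled to CPM. Exact Poisson intervals for levels and conditional binomial intervals for ratios (95%, pseudocount of 0.5 UMI) cover counting error only, since spots of a section are not replicates. For the difference between the ratios inside and outside the hippocampus, the distances to the limits of both ratios were combined as the root of their summed squares. A gene was compared between sections with at least 400 UMIs in both together, within a section with at least 200 UMIs, and called past a 1.5-fold change. The 7582 spots with at least 500 UMIs were clustered (scanpy 1.11.5, 930 genes, 30 principal components, 15 neighbours, Leiden resolution 1.5, seed 7), which gave 25 clusters; members, pathway genes and markers were left out. Clusters were named from marker sets, and the hippocampal outline followed the named layers. Ratios and intervals were tested on simulated data.

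The members, gene lists and marker sets were chosen with earlier results of these data known. Named were the 6 members, the up to 8 pathway genes with the largest section ratio in the hippocampus (same sign on both sides), the up to 8 with the largest white-matter ratio (same sign in both sections), a short list of pathway genes whatever their values, and the 3 genes nearest in pattern to each member. Alternatives were the pseudocount, total, weights, outline, clustering, side, depth and GC content. Gene coordinates are from GENCODE vM21 and promoters from RefSeq (GRCm38.p6).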

Additional observations from a re-analysis of the deposited data

Results flagged for a closer look

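Hsd11b1 had section ratios of opposite sign in different regions. Its log2 ratio, labelled trained over labelled untrained, was -0.26 over all spots outside the hippocampus and -1.03 in hypothalamic cluster 6, but 0.51 in hippocampal cluster 12, and these 3 intervals did not hold 0. The regional values rest on 18 and 86 UMIs in hypothalamic cluster 6 and 84 and 153 UMIs in cluster 12, below the minimum of 400 UMIs set for a comparison between the sections, so they are given as values only. With 1 section per group, the difference between regions was not tested. The level of Oxt, a gene of hypothalamic nuclei, was 663 and 63.1 CPM over the sections labelled trained and untrained, and the part of the plane of cutting in the Hsd11b1 values was not tested.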

How the results depend on the processing

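No paired analysis was possible because each group holds 1 section and the groups share a single replicate number, and for the same reason no section could be left out. Of 376 alternative values, 306 stayed within the counting interval of the reported value, 66 left it and 4 changed the sign of a value whose interval did not hold 0. A further 31 alternatives, among the 306 or the 66, changed the sign of a value whose interval held 0. The 66 and the 4 follow, with the sections labelled trained and untrained in that order, and section ratios in the hippocampus (inside) or outside it.
Sgk1 had an outside section ratio of 1.13 with every region weighted equally, 1.33 with every spot weighted equally, 0.96 on the left, 1.38 on the right, 1.15 minus the median of all genes, 1.17 without mitochondrially encoded genes, 1.17 with the outline widened, 0.86 in spots of 5000 to 15000 UMIs, 1.39 in spots thinned to 1000 UMIs and 1.08 without white matter and choroid plexus. Its inside ratio was 0.25 on the left, 0.83 on the right, 1.32 with the outline widened and 0.52 in spots of 5000 to 15000 UMIs. Its white-matter ratio was 2.34 and 1.53 at Leiden resolution 1.0, 2.49 and 1.88 with every spot weighted equally, 2.40 and 1.66 on the left, 2.39 and 1.97 after thinning and 3.07 and 2.04 in white-matter spots with white-matter neighbours alone. With every spot weighted equally its ratio over the other hippocampal spots was -0.44 in CA1 (trained), -0.18 in DG (untrained) and 0.45 and 0.47 in cluster 12, which on the left was 0.44 (trained).
For Tsc22d3 the outside ratio was 0.67 on the left, 0.46 on the right, 0.47 minus the median of all genes, 0.35 in spots of 5000 to 15000 UMIs and 0.47 after thinning, and the inside ratio 0.079 in spots of 5000 to 15000 UMIs. Its white-matter ratio was 0.17 and 0.32 after thinning, and -0.17 (a change of sign) and 0.26 in white-matter spots with white-matter neighbours alone.
For Fkbp5 the outside ratio was 0.52 with every region and 0.55 with every spot weighted equally, and the inside ratio 0.71 in spots of 5000 to 15000 UMIs. Its white-matter ratio was 0.43 and -0.79 after thinning and -0.57 (untrained) with every spot weighted equally. On the left its DG ratio was 0.58 (trained) and its cluster 12 ratio -0.0050 (untrained), which with every spot weighted equally was 0.029, a change of sign.
For Nr3c2 the inside ratio was 0.90 in spots of 5000 to 15000 UMIs and 0.68 after thinning, the outside ratio 0.34 after thinning, the CA1 ratio 0.85 on the left (trained) and the white-matter ratio -1.22 (trained) in spots with white-matter neighbours alone. For Nr3c1 the outside ratio was 0.20 in spots of 5000 to 15000 UMIs and 0.15 with the GC trend removed, and its white-matter ratio -0.056 (untrained) after thinning, a change of sign.
For Hsd11b1 the outside ratio was -0.44 on the left, -0.51 in spots of 5000 to 15000 UMIs and -0.42 with the GC trend removed, and the inside ratio -0.47 in spots of 5000 to 15000 UMIs. Its DG ratio was -0.81 (trained) and its white-matter ratio 0.45 (untrained) at Leiden resolution 1.0, its white-matter ratio -0.50 (untrained) on the left, -0.47 (trained) after thinning and -0.67 (trained) in spots with white-matter neighbours alone. Its CA1 ratio on the left was -0.94 and 0.082, the latter a change of sign, and its cluster 12 ratio (untrained) -0.31 on the left and -0.48 with every spot weighted equally.
With a minimum of 100 UMIs, 5 of 38 pathway genes were at least 1.5-fold higher in the hippocampus, against 9.79% of all genes. The alternatives by spots of 5000 to 15000 UMIs, by equal weights of regions and without white matter and choroid plexus were chosen after seeing the data. The causes of these changes were not tested. The shallower section, with 4 Nr3c1 UMIs in CA2 marker spots and 37 Nr3c2 UMIs in white matter, limits the precision of such values.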
